A study of Homo sapiens with 17 samples.

Results

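The 9 genes JUN, JUNB, JUND, FOS, FOSL1, FOSL2, EGR1, IER2 and IER3 were followed in K562 cells, an established human line from chronic myeloid leukaemia, across 17 RNA libraries. They were taken by name, and the estimated reads of all their transcripts were summed, so that they are 9 of 57638 genes for which reads were summed. JUN, JUNB and JUND (the Jun family) and FOS, FOSL1 and FOSL2 (the Fos family) encode subunits of AP-1, a transcription factor that binds DNA as a dimer. Jun proteins pair with each other or with Fos proteins, whereas Fos proteins need a Jun partner. JUN and FOS, like the zinc finger factor gene EGR1, belong to the immediate early genes, which growth factors and stress switch on through MAP kinases without new protein synthesis. IER2 and IER3 are further early response genes; the IER3 product is known for its part in cell survival and in the control of ERK signalling. In erythroid and megakaryocytic cells AP-1 subunits are expressed beside the related NFE2, and in chronic myeloid leukaemia the BCR-ABL1 kinase drives the MAP kinase route upstream of them.

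All cells were K562, received CRISPR plasmids by electroporation and then an antisense oligonucleotide (a short synthetic nucleic acid that binds a target RNA), and were taken on day 6. Neither the oligonucleotide nor the guides are named in the labels, and no library is labelled as untreated. Among the 17 libraries, 4 have a number before the gene in the plasmid label: 20-ARSF, 21-CTPS2, 22-LAPTM4B and 23-GOLGA8N. The other 13 are unprefixed: GOLGA8N 1, GOLGA8N 2, LAPTM4B 1, LAPTM4B 2, the reference libraries Neg, RFP and GFP, and E7, ADORA2A, COL6A6, TRPC5OS, TTR and UBE2V1 with 1 library each. The GOLGA8N and LAPTM4B arms, of 3 libraries each, each combine 1 prefixed library with 2 unprefixed ones, and the reference arm is Neg, RFP and GFP. The labels do not explain the prefix, Neg or E7, and are silent on whether each library had its own culture. The p-values therefore cover the scatter among these libraries alone, part of which may be technical.

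Library totals were 569057 estimated reads in GFP and 2252097 to 4236396 in the other 16. GFP, with 10815 genes at 1 read or more against 14184 to 17469 elsewhere, stood apart in depth. Levels are given as CPM, the reads of a gene scaled to the library's reads in annotated genes, and 3 reads corresponded to 5.46 CPM in GFP and to 0.733 CPM in 20-ARSF; such floors cover counting error only. The 12 erythroid markers were all found, with a summed level of 5015 to 9603 CPM, and the lymphoid markers CD3E, CD2, MS4A1 and CD79B had 0 reads in every library, although the labels call the cells lymphoblasts.

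Promoter sequence upstream of the RefSeq start (GRCh38.p14) was found for 7 of the 9 genes, IER3 and FOSL1 not being in the table. It is shown for JUN and JUND, the pair that stood highest in prefixed libraries, and for EGR1, which ordered the prefixed libraries differently between labels. Capitals mark matches, on either strand, to an AP-1 element (TGANTCA), a cyclic AMP response element (TGACGTCA), its variant TGACATCA, a CCAAT box (CCAAT), the TATA sequence (TATAA), an EGR element (GCGNGGGCG) or a CArG box, the binding sequence of serum response factor. The JUN stretch is chr1:58784107-58784134 on the minus strand, upstream of the RefSeq start at 58784047, in what GENCODE 29 counts as the 5′ untranslated part of a longer JUN transcript. The JUND stretch is chr19:18281623-18281872 on the minus strand and the EGR1 stretch chr5:138465229-138465478 on the plus strand, both upstream of the first exon.

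JUN: CCAATgggaaggccttggggTGACATCA

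JUND: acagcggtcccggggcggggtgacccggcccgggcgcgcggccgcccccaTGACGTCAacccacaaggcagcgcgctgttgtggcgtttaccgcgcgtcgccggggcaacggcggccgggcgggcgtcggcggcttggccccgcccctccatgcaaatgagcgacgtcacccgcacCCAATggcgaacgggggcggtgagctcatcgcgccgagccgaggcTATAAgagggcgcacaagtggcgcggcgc

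EGR1: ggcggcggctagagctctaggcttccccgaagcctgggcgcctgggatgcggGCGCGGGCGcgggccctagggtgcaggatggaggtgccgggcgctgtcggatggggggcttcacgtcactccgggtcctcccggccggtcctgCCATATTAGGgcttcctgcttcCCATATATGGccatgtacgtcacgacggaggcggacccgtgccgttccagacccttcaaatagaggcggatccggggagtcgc

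The JUN window searched had 250 bases as well, but is printed only from its first to its last match. It held the element variant TGACATCA, present in 2.37% of 35116 promoters of 250 bases, and a CCAAT box, present in 32% of them. JUND held 1 cyclic AMP response element (1.65% of promoters), 1 CCAAT box and 1 TATA sequence (18.9%). EGR1 held 2 CArG boxes (1.16% of promoters hold at least 1) and 1 EGR element (8.41%). TGANTCA, found in 6.57% of promoters, was in none of the 7 windows of the 9 genes. These are matches of letters in 1 window per gene and no measure of binding.

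The first comparison set the 4 prefixed against the 13 unprefixed libraries. JUN rose in the prefixed libraries and was the only gene among the 9 to pass the test across all genes. JUN (ENSG00000177606, chromosome 1, 58780788 to 58784327, minus strand) was at 243 CPM in 22-LAPTM4B, 212 CPM in 21-CTPS2, 206.5 CPM in 23-GOLGA8N and 175 CPM in 20-ARSF. In the unprefixed libraries its lowest level was 41.8 CPM, in GFP, the median 64.6 CPM and the highest 165 CPM, in E7. The 4 prefixed libraries thus held the 4 highest JUN levels, and no unprefixed library reached them. Means were 209 ± 27.8 CPM (SD, n = 4) and 77.3 ± 35 CPM (SD, n = 13), a ratio of 2.7, and edgeR's quasi-likelihood fit gave log2 1.44 ± 0.26 (SE; edgeR adjusted p = 0.0191). That comparison called 0.284% of the 12319 genes tested, and 0.235% were called higher. JUN was 1 of 8 members tested, and 3 of the 8 (JUN, JUND and IER2) had an unadjusted p under 0.05. Over all 12319 genes tested, 1153 had an unadjusted p under 0.05 in that edgeR fit. All prefixed libraries lay above all unprefixed ones in 0.203% of the genes tested. Since these are bulk libraries, more cells expressing JUN and more JUN RNA per cell cannot be told apart.

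**Figure D1:**
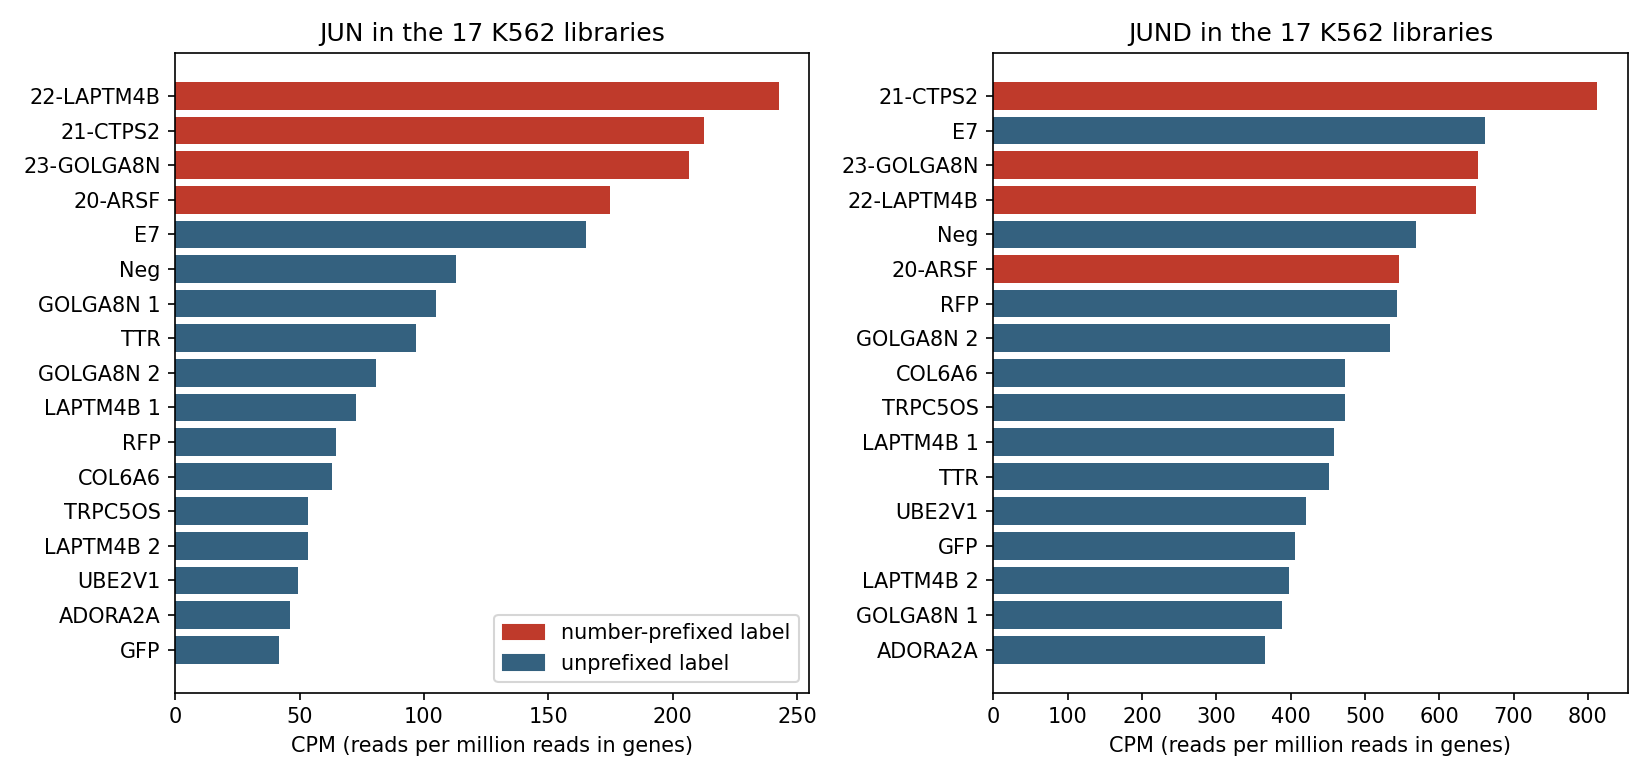
JUN (left) and JUND (right) in CPM in each of the 17 libraries, ordered by level, with number-prefixed labels in red and unprefixed labels in blue. The 4 prefixed libraries lead for JUN, from 175 to 243 CPM, while for JUND the unprefixed E7, at 662 CPM, stands among them.

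The call depended on which prefixed libraries were kept. Without 22-LAPTM4B, 21-CTPS2 or 23-GOLGA8N in turn, the log2 difference was 1.34, 1.45 and 1.44, and edgeR's adjusted p was 0.145, 0.0829 and 0.117 in that order, so the call was lost each time. It was kept without 20-ARSF, at log2 1.52, and without the shallow GFP library, at log2 1.39 (edgeR adjusted p = 0.0337 and 0.0241). In the 6 libraries of the GOLGA8N and LAPTM4B arms, with the gene label as a term, JUN was called at log2 1.59 ± 0.22 (SE; edgeR adjusted p = 0.00173), and that comparison has no ARSF, CTPS2, E7 or reference library. That fit called 73 of the 11829 genes tested, against 35 of 12319 in the fit on all 17 libraries.

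**Figure D2:**
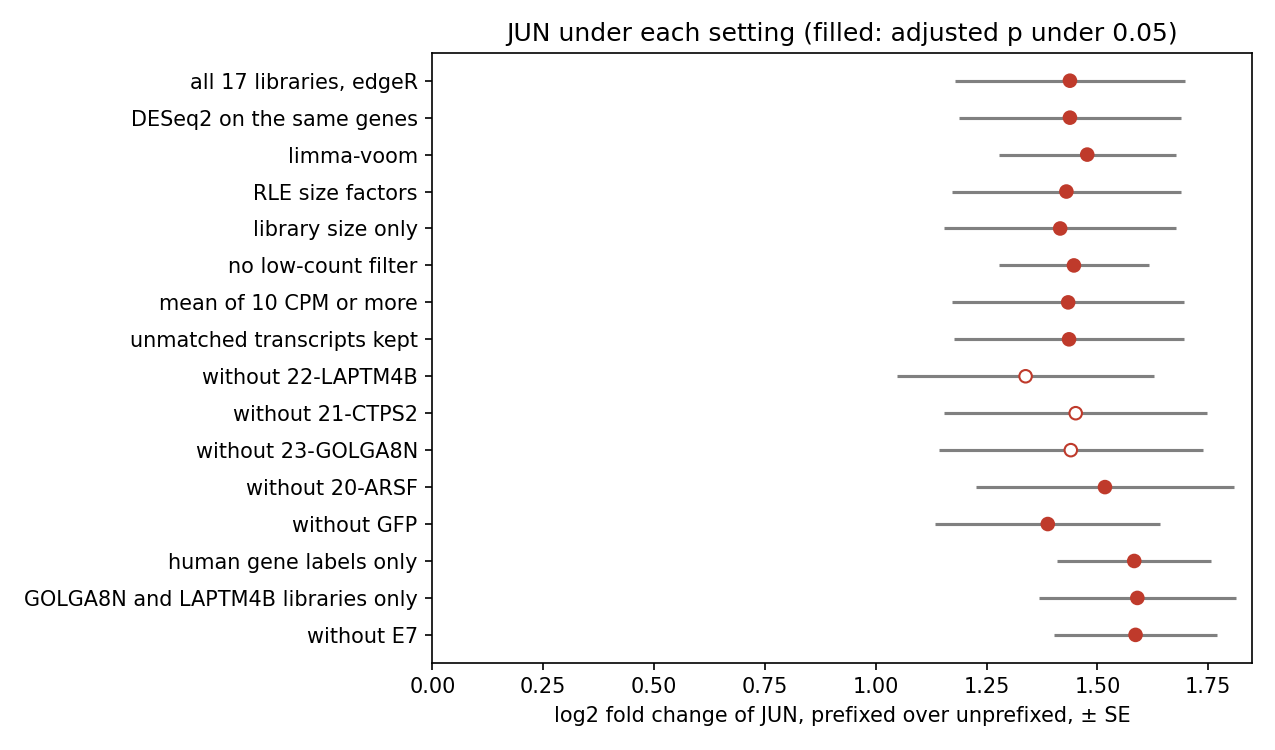
Fitted log2 fold change of JUN, prefixed over unprefixed libraries, with its SE, under each alternative; filled points passed an adjusted p of 0.05. Values lie between 1.34 and 1.59, and the 3 open points are the fits without 22-LAPTM4B, 21-CTPS2 or 23-GOLGA8N.

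Other measures of the libraries moved with the prefix as well. Cytosolic ribosomal protein genes took 24.54% to 25.28% of reads in genes in the prefixed libraries and 21.67% to 24.4% in the unprefixed ones, without overlap. The summed level of 6 fibroblast markers was 20.7 to 38.1 CPM in prefixed and 40 to 64.3 CPM in unprefixed libraries. COL1A2 averaged 43.7 CPM and COL1A1 3.51 CPM over all libraries, and LUM and PDGFRB were at 0 reads throughout. The 5 epithelial markers summed to 1644 to 2018 CPM against 842 to 1805 CPM. Of the 4 tested, 3 keratins lay above 0 and EPCAM below, at log2 -0.34 ± 0.16 (SE; edgeR adjusted p = 0.511), and KRT19 alone was called, at 0.58 ± 0.13 (SE; edgeR adjusted p = 0.0383). Of the 12 erythroid markers 5 lay above 0 and 7 below (median log2 -0.047), and their sums overlapped, at 5985 to 8846 CPM in prefixed and 5015 to 9603 CPM in unprefixed libraries. Among them 1 was called, HBE1, the embryonic beta-like globin, at log2 0.83 ± 0.16 (SE; edgeR adjusted p = 0.0191). CD68, a lysosomal protein of macrophages, was called lower at log2 -1.50 ± 0.35 (SE; edgeR adjusted p = 0.0493). It was 1 of 2 monocyte and macrophage markers tested. LYZ, the other, lay above 0, at a mean of 15.9 CPM in prefixed and 13.7 CPM in unprefixed libraries, and was not called. KRT19 and CD68 lost their calls when any prefixed library was left out, HBE1 when any but 23-GOLGA8N was, and all 3 kept them without GFP. In these lost calls edgeR's adjusted p ran from 0.0646 to 0.297. CD68 also lost its call with limma-voom (limma-voom adjusted p = 0.152). Both CD68 and KRT19 lost theirs in edgeR with RLE scaling and with unmatched transcripts kept, and KRT19 with library size only (edgeR adjusted p = 0.05005 to 0.0715). With the GOLGA8N and LAPTM4B libraries only, none of the 3 was called (edgeR adjusted p = 0.182 to 0.241). Megakaryocytic markers summed to at most 5.79 CPM in prefixed and 13.9 CPM in unprefixed libraries, monocyte markers to 18.4 to 36.4 and 21.4 to 48.5 CPM, and lymphoid markers to 41.4 to 93.1 and 33.4 to 119 CPM. Depth overlapped, at 2252097 to 4236396 reads in prefixed and 569057 to 4162542 in unprefixed libraries. The part of any of these in the JUN difference was not tested.

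JUND (ENSG00000130522, chromosome 19, 18279760 to 18281622, minus strand) encodes the Jun protein that many cells make without stimulation. It was at 813 CPM in 21-CTPS2, 652 CPM in 23-GOLGA8N, 649 CPM in 22-LAPTM4B and 546 CPM in 20-ARSF. Unprefixed libraries ran from 365 CPM in ADORA2A, through a median of 458 CPM, to 662 CPM in E7. The groups overlapped, with 11 of 13 unprefixed libraries below every prefixed one and Neg and E7 above 20-ARSF. The log2 difference of 0.51 ± 0.12 (SE) missed the threshold (edgeR adjusted p = 0.0562). It passed in 7 of 15 alternatives, among them without 20-ARSF (log2 0.59, edgeR adjusted p = 0.0353), without GFP (log2 0.48, edgeR adjusted p = 0.0475) and in DESeq2 (log2 0.50, DESeq2 adjusted p = 0.0184). Those 3 fits called 29 of 12837, 46 of 12270 and 94 of 12319 genes, and the main fit 35 of 12319. JUND also passed with no low-count filter (557 of 26797 genes called) and at a mean of 10 CPM or more (41 of 7306). It passed too with human gene labels only (137 of 11084) and without E7 (102 of 12040), the latter chosen after its values were seen. The lowest JUND value was log2 0.42, without 21-CTPS2 (edgeR adjusted p = 0.356).

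JUNB (ENSG00000171223, chromosome 19, 12791496 to 12793315, plus strand), a Jun protein that can restrain JUN activity as well as replace it, did not share this order. It was at 77.5 CPM in 22-LAPTM4B, 71.4 CPM in 20-ARSF, 68.5 CPM in 23-GOLGA8N and 67.2 CPM in 21-CTPS2. The unprefixed libraries spanned 39.8 CPM in UBE2V1 to 121 CPM in TRPC5OS, with a median of 81.4 CPM. The prefixed values lay inside that span, and the log2 difference was -0.15 ± 0.19 (SE; edgeR adjusted p = 0.902). HOOK2 overlaps JUNB on the other strand and had 539 reads in all libraries together, against 3902 for JUNB. The sources used here do not give the strand setting of the counting, so reads of such pairs are uncertain, whereas no annotated gene overlaps JUN or JUND.

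The balance within the Jun family was described from the deposited TPM, which scale reads by transcript length. Reads of a 3′ tag protocol do not grow with length, so the shares depend on that scaling. JUND took the largest share of Jun family TPM in all 17 libraries, from 72.5% in GOLGA8N 1 to 86.6% in UBE2V1. JUN made up 12.4% ± 1.44 (SD, n = 4) in the prefixed libraries and 6.34% ± 2.06 (SD, n = 13) in the unprefixed ones. On the TPM scale JUN exceeded JUNB in all 4 prefixed libraries and, among the unprefixed ones, in E7, where JUN was at 10.25% and JUNB at 7.13%. That order turned without the length scaling: in CPM, JUN was above JUNB in 6 unprefixed libraries, E7, Neg, GOLGA8N 1, TTR, LAPTM4B 1 and UBE2V1. JUND held 78.8% ± 2.59 (SD, n = 4) and 79.6% ± 3.65 (SD, n = 13).

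**Figure D3:**
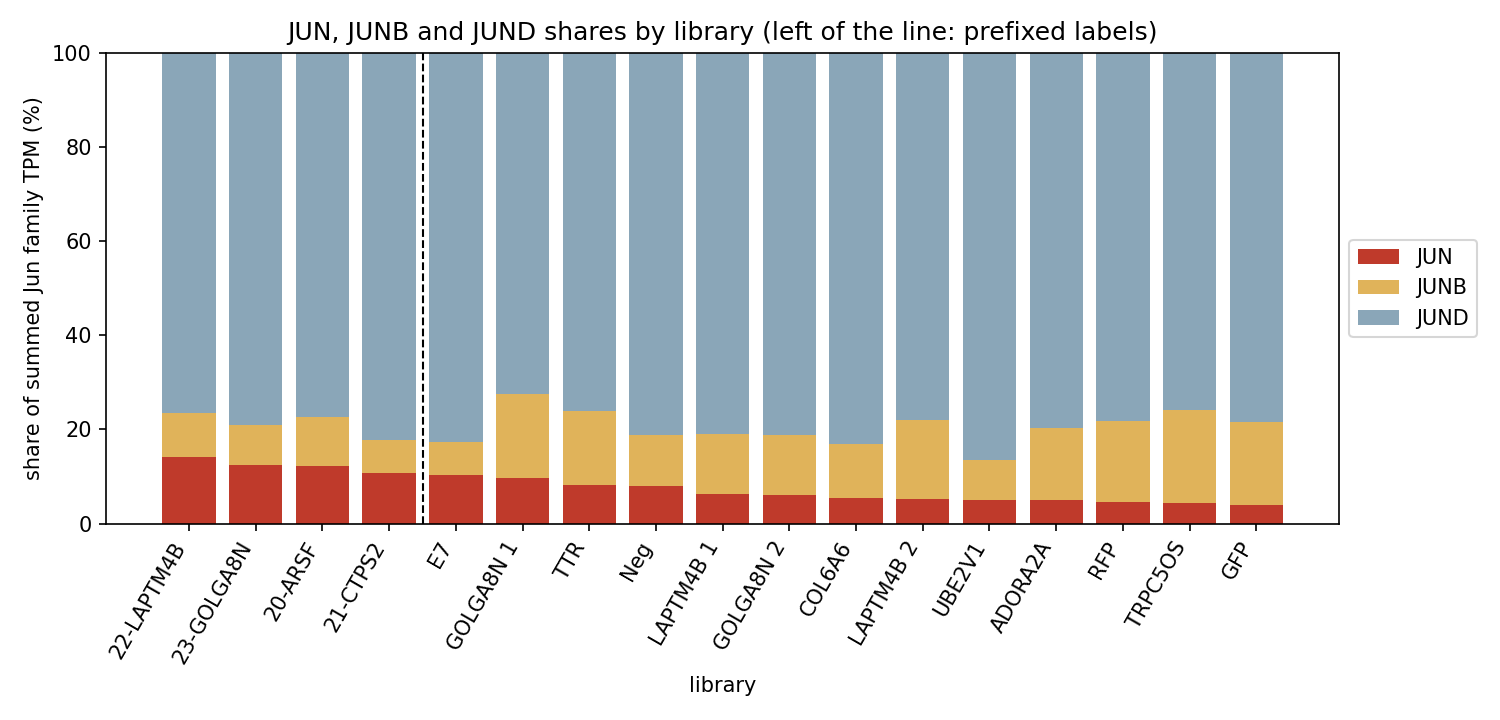
Shares of JUN, JUNB and JUND in their summed TPM, in percent, for each library, with the 4 prefixed libraries left of the dashed line. The JUN share runs from 10.72% to 14.23% on the left and from 4.03% to 10.25% on the right.

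The Fos family was low throughout. FOS (ENSG00000170345, chromosome 14, 75278774 to 75282230, plus strand), the best known partner of JUN, received 28 reads over all 17 libraries, at most 8 in RFP, and was at 0 reads in 8 of them. More than 3 reads were seen in Neg, RFP and 20-ARSF only, at 1.53, 2.57 and 1.22 CPM. FOS fell below the filter on low counts and was not tested. Differences in FOS were not detectable at this depth.

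FOSL1 (Fra-1; ENSG00000175592, chromosome 11, 65892049 to 65900573, minus strand), a Fos family member that lacks the C-terminal activation domain of FOS, had 426 reads in all. Its level was 11 CPM in 23-GOLGA8N, 7.63 CPM in 21-CTPS2, 6.07 CPM in 22-LAPTM4B and 3.42 CPM in 20-ARSF, and the unprefixed libraries ran from 2.29 CPM in LAPTM4B 2 to 15.8 CPM in LAPTM4B 1, with a median of 9.86 CPM. The lowest and the highest level thus belonged to libraries of the same label. FOSL2 (Fra-2; ENSG00000075426, chromosome 2, 28392448 to 28417312, plus strand), its close relative, was at 7.81 CPM in 22-LAPTM4B, 7.62 CPM in 21-CTPS2, 5.52 CPM in 23-GOLGA8N and 2.93 CPM in 20-ARSF, against 1.29 to 6.88 CPM and a median of 4.6 CPM in the unprefixed libraries. Neither passed the test, at log2 -0.42 ± 0.46 and 0.35 ± 0.55 (SE; edgeR adjusted p = 0.886 and 0.932). FLJ31356 overlaps FOSL2 on the other strand, with 53.8 reads against 253.

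EGR1 (ENSG00000120738, chromosome 5, 138465490 to 138469315, plus strand), an early zinc finger factor induced through serum response factor, did not pass the test. It was at 133 CPM in 21-CTPS2, 104 CPM in 22-LAPTM4B, 91.5 CPM in 23-GOLGA8N and 72.4 CPM in 20-ARSF. Unprefixed libraries ran from 44 CPM in LAPTM4B 1 to 137 CPM in GOLGA8N 2, with a median of 87.4 CPM, so the groups overlapped widely. The prefix difference was log2 0.22 ± 0.20 (SE; edgeR adjusted p = 0.836).

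IER2 (ENSG00000160888, chromosome 19, 13150415 to 13154908, plus strand) encodes a nuclear protein of the early response. It was at 735 CPM in 22-LAPTM4B, 704 CPM in 20-ARSF, 699.9 CPM in 23-GOLGA8N and 597 CPM in 21-CTPS2. The unprefixed libraries ran from 427 CPM in TRPC5OS to 840 CPM in GFP, with a median of 544 CPM, and only GFP stood above all prefixed libraries. Its coefficient of variation over the 17 libraries, 19.1%, was the lowest of the 9 genes, and the log2 difference 0.29 ± 0.12 (SE; edgeR adjusted p = 0.413). IER3 (ENSG00000137331, chromosome 6, 30743199 to 30744554, minus strand) was at 405.5 CPM in 23-GOLGA8N, 384 CPM in 22-LAPTM4B, 315 CPM in 21-CTPS2 and 299 CPM in 20-ARSF, inside the unprefixed span of 163 CPM in LAPTM4B 2 to 449 CPM in TTR, with a median of 302 CPM (log2 0.21 ± 0.15 SE; edgeR adjusted p = 0.764). IER3-AS1 overlaps IER3 on the other strand, with 224 reads against 16139.4.

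**Figure D4:**
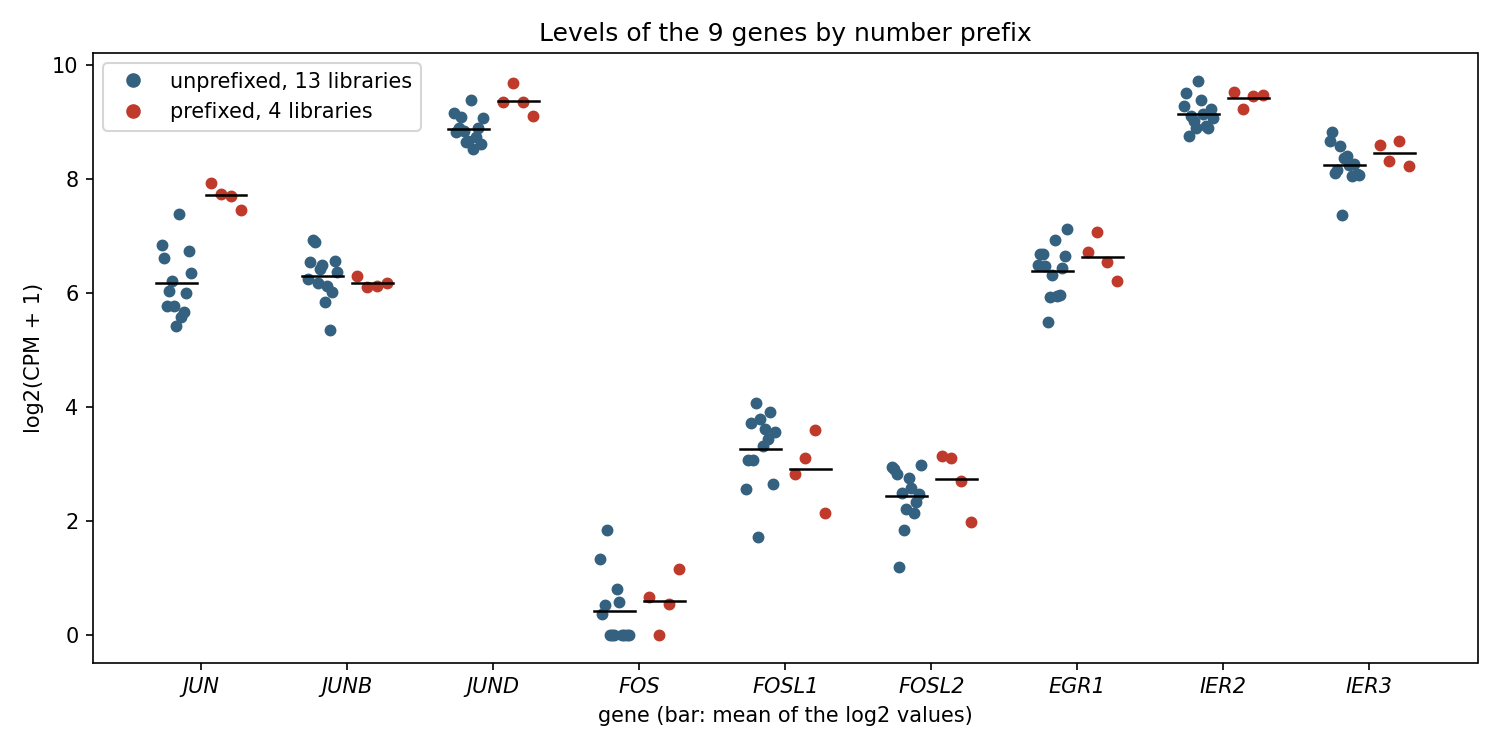
Level of each of the 9 genes as log2(CPM + 1), with a point for each library, unprefixed libraries in blue and prefixed ones in red, and a bar at the mean of the log2 values. JUN is the gene whose red points all lie above the blue ones, and FOS lies near 0.

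In deposited TPM the mean levels over all libraries fell into 3 tiers. IER2, JUND and IER3 averaged 102, 101 and 100.3 TPM. JUNB, JUN and EGR1 averaged 15.8, 10.4 and 9.96 TPM, and FOSL1, FOSL2 and FOS 2.36, 0.285 and 0.0854 TPM. The order within tiers rests on the length scaling: in CPM, which is not a comparison per length, JUN, EGR1 and JUNB averaged 108, 89.7 and 78.5 CPM, and IER2, JUND and IER3 599, 518 and 319 CPM.

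The prefixed and unprefixed libraries of the same gene label were also set side by side. JUN in 22-LAPTM4B, at 243 CPM, stood above LAPTM4B 1 at 72.7 CPM and LAPTM4B 2 at 53.3 CPM. JUN in 23-GOLGA8N, at 206.5 CPM, stood above GOLGA8N 1 at 105 CPM and GOLGA8N 2 at 80.6 CPM. JUND, IER2 and IER3 stood above both unprefixed libraries under both labels as well, IER3 by little in LAPTM4B (384 against 380 CPM in LAPTM4B 1). FOS did so too, on 1 read in 23-GOLGA8N and 2 reads in 22-LAPTM4B against 0 in the unprefixed libraries. Each label had 1 prefixed library, and the share of all genes in that order was not counted, so the order alone sets no member apart. EGR1 differed in order: 22-LAPTM4B, at 104 CPM, was above LAPTM4B 1 at 44 CPM and LAPTM4B 2 at 59.6 CPM, while 23-GOLGA8N, at 91.5 CPM, was below GOLGA8N 1 at 99.4 CPM and GOLGA8N 2 at 137 CPM.

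E7 was the unprefixed library closest to the prefixed ones in JUN and JUND. It had the highest JUN, at 165 CPM, and the highest JUND, at 662 CPM, of the 13, and with 120 CPM the second EGR1 level after GOLGA8N 2. Its JUNB, at 56 CPM, was lower than in 11 of the other unprefixed libraries and in every prefixed one. Without E7, an alternative chosen after its values were seen, JUN was at log2 1.59 ± 0.18 and JUND at 0.56 ± 0.11 (SE; edgeR adjusted p = 1.25e-05 and 0.0056). The next JUN levels, Neg at 113 CPM and GOLGA8N 1 at 105 CPM, lay well under E7, so 20-ARSF and E7 were the closest pair across the prefix and differed by less than the SD of either group.

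The second set of comparisons was between plasmid genes. No member was called in the GOLGA8N arm against the reference arm, where edgeR called 0.0168% of 11916 genes. None was called in the LAPTM4B arm against reference, with 0% called, nor in GOLGA8N against LAPTM4B, with 0.00839% called. DESeq2 and limma-voom called no member there either. At an unadjusted p under 0.05 there were 0, 0 and 1 members among 8 tested, and 679, 470 and 243 genes in all. The first pair of comparisons shares the reference libraries.

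JUN was at log2 0.93 ± 0.71 and 0.85 ± 0.71 (SE) in the GOLGA8N and LAPTM4B arms against reference, where Neg was at 113, RFP at 64.6 and GFP at 41.8 CPM. Without GFP those differences were log2 0.69 and 0.62. With unprefixed libraries only, they were log2 0.45 and -0.14, so the second turned direction. Directly compared, the arms stood at log2 0.08 ± 0.69 (SE; edgeR adjusted p = 1), with JUN at 131 ± 66.7 CPM in GOLGA8N and 123 ± 104 CPM in LAPTM4B (SD, n = 3 each).

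EGR1 had the lowest p of the members in GOLGA8N against reference and in GOLGA8N against LAPTM4B. Its 3 GOLGA8N libraries, at 99.4, 137 and 91.5 CPM, all stood above Neg at 88.9, RFP at 87.4 and GFP at 78.2 CPM, at log2 0.50 ± 0.29 (SE; edgeR adjusted p = 0.924). Without GFP that difference was log2 0.44 ± 0.31 (SE; edgeR adjusted p = 0.942). Ranges that did not overlap in that direction were found for 3.79% of all genes tested there. Against the LAPTM4B arm, where 22-LAPTM4B exceeded 23-GOLGA8N, the difference was log2 0.66 ± 0.29 (SE; edgeR adjusted p = 1). It was 1.11 without 22-LAPTM4B, 1.22 with unprefixed labels only and 0.42 without LAPTM4B 1, and was called in none of them (edgeR adjusted p = 0.833, 0.902 and 1). The remaining members lay between log2 -0.14 and 0.67 in these comparisons, with FOSL2, the highest, at an SE of 1.03.

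**Figure D5:**
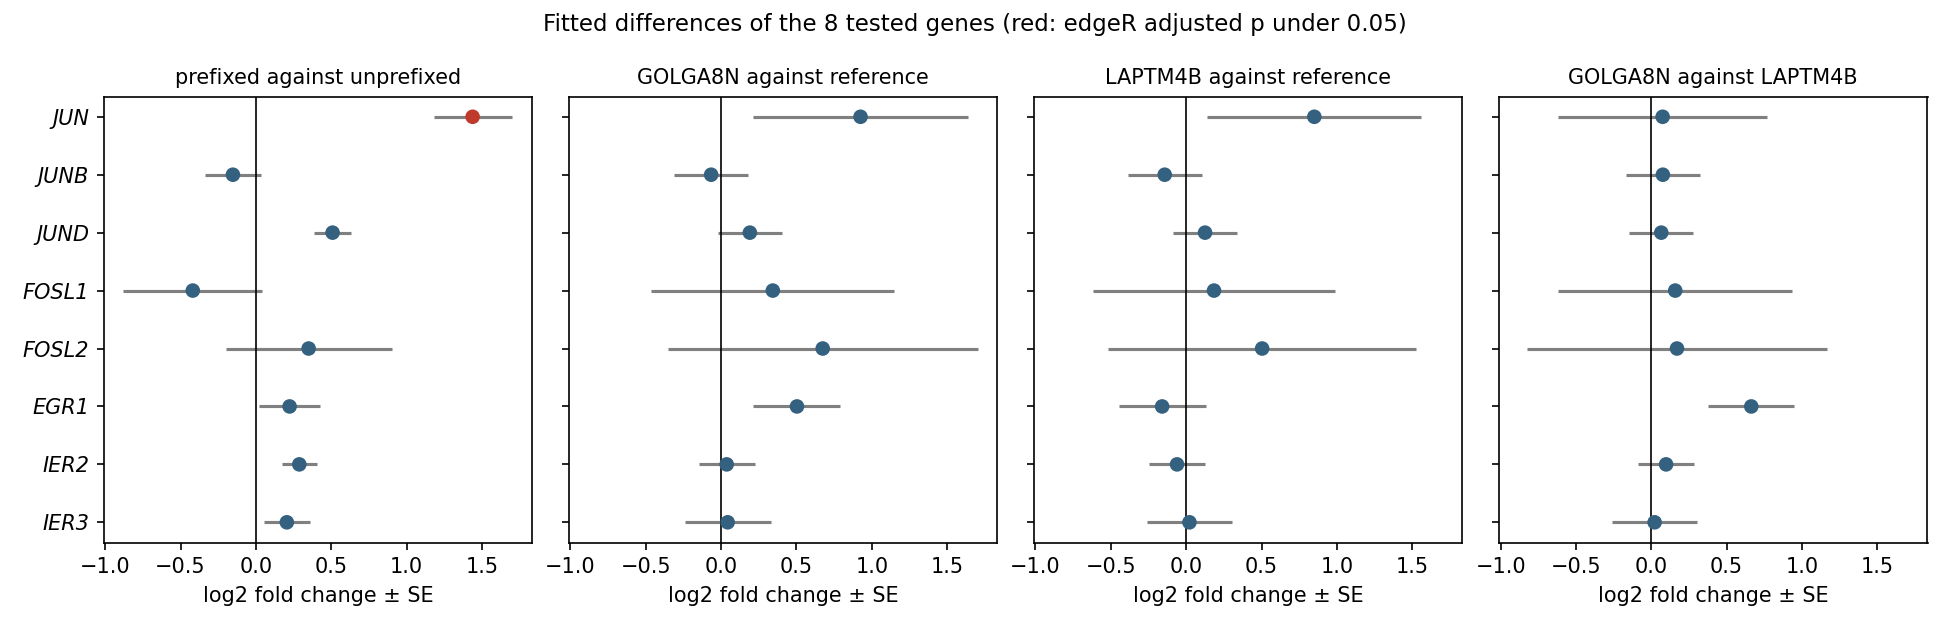
Fitted log2 fold change with SE of the 8 tested members in the 4 comparisons, red where the edgeR adjusted p was under 0.05. JUN at 1.44 in the prefix comparison is the only red point, and the SE of JUN is 0.69 or more in the 3 comparisons of arms.

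Other genes of the route were taken from lists chosen with earlier results of these data known. Across the prefix, where 47.8% of all genes lay above 0 and the median log2 was -0.021, none of the route lists had a called member. Of 42 annotated further immediate early genes, 28 were tested, and 17 lay above 0, with a median of 0.15. MCL1, an anti-apoptotic early gene, stood at 392 to 419 CPM in prefixed and 185.5 to 391 CPM in unprefixed libraries (log2 0.56 ± 0.13 SE; edgeR adjusted p = 0.063). BTG1, an anti-proliferative factor, was at log2 0.85 ± 0.23 and KLF6, a zinc finger factor, at 1.49 ± 0.39 (SE; edgeR adjusted p = 0.102 and 0.132). KLF6 reached 31.1 to 67.6 CPM in prefixed libraries, and its highest unprefixed level, 44.6 CPM, was again in E7.

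Of 23 other AP-1 family and partner factors, 20 were tested and 15 lay above 0 (median log2 0.15). MAFG, a small Maf partner, was at log2 0.57 ± 0.18, ATF4, the factor of the integrated stress response, at 0.45 ± 0.15 and ATF3, a stress-induced partner of Jun proteins, at 1.60 ± 0.63 (SE; edgeR adjusted p = 0.223, 0.26 and 0.399). Among 12 tested of 22 known AP-1 target genes, 11 lay above 0 (median log2 0.26). The lowest p values were those of PLAUR, the urokinase receptor, at log2 0.72 ± 0.23, LMNA, which encodes lamins A and C, at 0.30 ± 0.13 and PLAU, urokinase, at 0.82 ± 0.52 (SE; edgeR adjusted p = 0.243, 0.482 and 0.688). In GOLGA8N against reference 1 of these 12 was called, TIMP1, an inhibitor of metalloproteinases, at log2 1.19 ± 0.20 (SE; edgeR adjusted p = 0.0389). JUN was not called there. The TIMP1 call was lost without Neg, RFP, GFP, GOLGA8N 1 or GOLGA8N 2 in turn, at log2 1.05 to 1.27 (edgeR adjusted p = 0.0699, 0.237, 0.202, 0.115 and 0.0957 in that order), and kept without 23-GOLGA8N. It was also lost with limma-voom (adjusted p = 0.0731) and, in edgeR, with library size only, at a mean of 10 CPM or more and with unmatched transcripts kept (adjusted p = 0.156, 0.0805 and 0.0572). In LAPTM4B against reference and in GOLGA8N against LAPTM4B none of the 12 was called. The signs of the target genes were also counted between arms. In GOLGA8N against reference 11 of 12 tested lay above 0 (median log2 0.49), where 50.7% of all genes did. In LAPTM4B against reference 9 of 12 did (median 0.41, all genes 51.9%), and in GOLGA8N against LAPTM4B 8 of 12 (median 0.15, all genes 48.4%). The 12 erythroid markers had 11, 10 and 11 above 0 in the same comparisons, in that order (median log2 0.42, 0.13 and 0.17). Such counts were thus not particular to the target genes.

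The list of feedback inhibitors of MAP kinase signalling and factors of early mRNA decay had 10 tested of 18 and 6 above 0 (median log2 0.31). Among them, the phosphatase genes DUSP4, DUSP7 and DUSP16 were at log2 1.54 ± 0.87, -1.20 ± 0.81 and 0.70 ± 0.52 (SE). Of 25 genes of the upstream kinase route, 24 were tested and 10 lay above 0 (median log2 -0.059), with the kinase genes MAP2K2 at 0.32 ± 0.15 and MAP3K1 at -1.21 ± 0.63 (SE). Serum response factor and its partners had 5 tested of 6 annotated and 3 above 0 (median log2 0.042), with ELK4 at -0.75 ± 0.49, MRTFB at -0.59 ± 0.63 and MRTFA at 0.22 ± 0.33 (SE). None of these passed the test, with edgeR adjusted p from 0.517 to 0.926.

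The genes whose levels ordered the 17 libraries most like JUN were sought among 7310 genes averaging at least 10 CPM, by Spearman's rho of log2(CPM + 1). They were MCL1 (rho 0.94), TNNT1, the slow skeletal muscle troponin T (0.94), and ANKZF1, a ribosome quality control factor (0.92). TNNT1 was at 480.5 to 548 CPM in prefixed and 287 to 392 CPM in unprefixed libraries. For JUND the nearest were OR1D2 (rho 0.93), the glycolytic enzyme gene PGK1 (0.91) and LGALS1, galectin-1 (0.90), each highest among unprefixed libraries in E7. For EGR1 they were IL2RG (rho 0.87), YPEL5 (0.84) and GATD3A (0.83). IER2 was followed most closely by FLNA, filamin A (0.89), TCF12 (0.87) and the golgin gene GOLGA2 (0.86), and IER3 by ATP6AP1, NINJ1 and TATDN1 (0.83, 0.83 and 0.82). JUNB had no neighbour as close, with GALNT7, SRSF8 and NRBF2 at 0.76, 0.75 and 0.75. All points share libraries and depth, and the values are descriptions.

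Among the members themselves, JUN and JUND had a rho of 0.79 over 17 libraries and 0.59 over the 13 unprefixed ones. IER2 and IER3 were at 0.63 and 0.58. JUN and EGR1 were at 0.59 and 0.63, and over the unprefixed libraries that is above JUN with JUND. JUNB stood apart from JUN and JUND, at -0.14 and -0.30 over 17 libraries and at 0.022 and -0.11 over the 13 unprefixed ones.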

How the data were processed

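Per the file headers, the authors made the deposited values with a transcript quantifier in Salmon's layout, which gives an estimated count and a TPM (scaled by transcript length and library) for each of 228297 transcripts per library. Salmon and STAR, each listed at version 0.7.2, featureCounts and UMI-tools appear in the submitters' processing notes; the same version beside both leaves that of STAR in doubt. No source used here says whether molecular identifiers were collapsed. Per the labels' protocols, libraries were 3′ tags primed with oligo-dT.

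Counts were added up by gene in the GENCODE 29 annotation, where 205336 transcripts matched by identifier. The others, with 3.32% to 3.6% of reads, were left out. The rounded sums entered edgeR 4.0.16 under R 4.3.3 (robust quasi-likelihood, TMM scaling, filterByExpr; SE is the fold divided by the root of F), with Benjamini-Hochberg adjustment over all genes and a threshold of 0.05. The prefix was tested on 17 libraries and the arms on 9 in 1 fit. DESeq2 1.42.0, limma-voom (limma 3.58.1), other scalings, filters and sets of libraries were alternatives, and the fit was tested on simulated counts. Promoters came from RefSeq (GRCh38.p14). Members and lists were chosen with earlier results of these data known. All members were named, with up to 3 genes of lowest p and any called gene per list, and 3 nearest genes by rho. The values of 1 gene that this rule names are not reported here.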

Additional observations from a re-analysis of the deposited data

Results flagged for a closer look

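EGR1 was singled out because its prefix difference ran in opposite directions under 2 labels: 22-LAPTM4B was above both unprefixed LAPTM4B libraries, and 23-GOLGA8N was below both unprefixed GOLGA8N libraries. The difference between those differences, GOLGA8N minus LAPTM4B, was log2 -1.43 ± 0.46 (SE) in a fit with an interaction term on 6 libraries, and did not pass (edgeR adjusted p = 0.998, 10518 genes tested, 0 called, 453 at an unadjusted p under 0.05). Each label had 1 prefixed library. No level among the 4 prefixed libraries was set apart from the other 3 by Dixon's test, for any of the 9 genes.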

How the results depend on the processing

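JUN stayed higher in prefixed libraries under every alternative run, at log2 1.34 to 1.59, and lost its call in the 3 fits named in the report. Of 118 alternative values for the members in the prefix comparison none changed direction, and 7 passed the threshold that the main fit missed, all of them JUND. The genes called there, 35 in all, numbered 94 with DESeq2, 55 with limma-voom, 557 with no low-count filter, 23 with unmatched transcripts kept, 137 with human gene labels only, 73 with the GOLGA8N and LAPTM4B libraries only, 102 without E7 (chosen after seeing the data), and 2 to 46 with a prefixed library or GFP left out.

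GOLGA8N against reference, with 2 genes called, gave 12 with DESeq2, 0 with limma-voom, 1 with library size only, 42 with no filter, 1 at a mean of 10 CPM or more, 19 on all 17 libraries, 6 with the prefix as a term, 7 with unprefixed labels only, and 1 to 5 with 1 library left out. LAPTM4B against reference, with 0 called, gave 1 with DESeq2, 25 with no filter, 4 on all 17 libraries, 2 with unprefixed labels only, and 0 to 1 with 1 left out. GOLGA8N against LAPTM4B, with 1 called, gave 3 with DESeq2, 0 with limma-voom, 9 with no filter, 3 with unmatched transcripts kept, 4 on all 17 libraries, 2 with unprefixed labels only, and 1 to 3 with 1 left out. Replicate numbers 1 and 2 of these labels share only a number (correlation of deviations 0.115 over 7306 genes): with the replicate block EGR1 was at log2 1.22 (edgeR adjusted p = 0.184) and 2 genes were called, and without it, on the same 4 libraries, 2.

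No member was called between arms in edgeR, DESeq2 or limma-voom, and small differences changed sign; the cause was not tested. Scaling by library size only moved the median of all genes to log2 -0.14 in GOLGA8N and -0.12 in LAPTM4B against reference. In GOLGA8N against reference the log2 values that reversed were JUNB 0.046, IER2 -0.063 and IER3 -0.18 with unprefixed labels only, JUND -0.021, IER2 -0.12 and IER3 -0.17 with the prefix as a term, IER2 -0.00076 with RLE, IER2 -0.12 and IER3 -0.11 with library size only, IER2 -0.0044 at a mean of 10 CPM or more, and IER3 -0.0034 with limma-voom. With 1 library left out, JUNB ran from -0.21 to 0.18, IER2 from -0.069 to 0.21 and IER3 from -0.17 to 0.21. In LAPTM4B against reference they were JUN -0.0019, JUND -0.10 and IER3 -0.19 with the prefix as a term, JUN -0.14, JUND -0.13 and IER3 -0.18 with unprefixed labels only, JUND -0.021 and IER3 -0.13 with library size only, and IER3 -0.012 with DESeq2, -0.11 with limma-voom, -0.012 with RLE and -0.017 at a mean of 10 CPM or more. With 1 library left out, JUN ran from -0.14 to 1.31, JUNB from -0.29 to 0.10, JUND from -0.12 to 0.30, FOSL1 from -0.75 to 0.65, EGR1 from -0.60 to 0.088, IER2 from -0.30 to 0.12 and IER3 from -0.18 to 0.36. In GOLGA8N against LAPTM4B, FOSL1 was at -0.16 with unprefixed labels only and, on 4 libraries without the block, at -0.18, with IER3 at -0.0020. With 1 library left out, JUN ran from -0.41 to 1.07, JUNB from -0.051 to 0.18, JUND from -0.12 to 0.32, FOSL1 from -0.28 to 1.09, FOSL2 from -0.15 to 0.67, EGR1 from 0.42 to 1.11, IER2 from -0.037 to 0.34 and IER3 from -0.29 to 0.23. Leaving out a library leaves 2 in that arm, with the spread pooled over arms. Depth limits FOS, FOSL1 and FOSL2 most.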
